A study of Mus musculus with 4 samples.

Results

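Retinoids are vitamin A and its derivatives, and the genes described here carry, store or convert them. The set has 9 members: Rbp4, Crabp1, Crabp2, Stra6, Lrat, Dhrs3, Dhrs9, Aldh1a1 and Aldh1a3. They were taken by gene symbol from tables of 20611 symbols, all 9 were found, and all 9 were among the 15068 genes with enough counts to be tested. Each member was above the count filter in every library, so none entered through the group where it was high. The list was drawn up with the counts of these libraries already known. Its values are therefore a description, and no p-value is given for a member.

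RNA was sequenced from the back skin of BALB/c mice, all male and 8 to 9 weeks old. All mice received 5% imiquimod cream (IMQ), 47 mg per day on days 1 to 5, and skin was taken on day 6. Imiquimod activates Toll-like receptor 7 and gives a psoriasis-like dermatitis in mouse skin. IMQ was 1 library from skin with the cream alone. IMQ+VEH was 2 libraries from skin that also received a vehicle lotion about 1 h after the cream, and IMQ+IDMF was 1 library from skin that received a lotion with isosorbide di-(methyl fumarate), a dimethyl fumarate pro-drug by the study's title. All groups had imiquimod, and healthy skin is not part of any comparison. Total counts ran from 21167149 to 26639628 per library. All 8 keratinocyte markers, among them Krt5, Krt14, Krt1 and Krt10, had counts in every library. The submitters describe the libraries as biological replicates.

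Retinol travels in blood bound to RBP4 and enters many cells through STRA6. Inside the cell it is either esterified for storage by LRAT or oxidised to retinal and then to retinoic acid, the form that switches genes on through RAR and RXR nuclear receptors. The epidermis needs retinoic acid in a narrow range, since too little or too much alters keratinocyte growth and cornification. Sebaceous glands and hair follicles also respond to it.

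The promoter windows of Rbp4 and Lrat are shown because these members differed most between IMQ and the lotion libraries, in opposite directions. Aldh1a1 is shown as a member with the core motif that retinoid receptors bind. Windows run from 250 bases before to 50 bases after the transcription start (RefSeq, GRCm38.p6, 5′ to 3′ along the gene's strand). Capitals mark a TATA box (TATAAA or TATAAG on the gene's strand), a GC box (GGGCGG, both strands) or the receptor core motif (NGGTCA or NGTTCA with A or G as the first letter, both strands).
Rbp4, chr19:38124762-38125061, minus strand: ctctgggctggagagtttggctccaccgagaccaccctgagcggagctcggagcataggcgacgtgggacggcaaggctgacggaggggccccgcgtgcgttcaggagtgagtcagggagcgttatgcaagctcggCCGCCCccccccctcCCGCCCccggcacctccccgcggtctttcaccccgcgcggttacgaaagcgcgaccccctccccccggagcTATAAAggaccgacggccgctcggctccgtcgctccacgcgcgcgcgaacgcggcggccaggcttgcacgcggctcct
Lrat, chr3:82903925-82904224, minus strand: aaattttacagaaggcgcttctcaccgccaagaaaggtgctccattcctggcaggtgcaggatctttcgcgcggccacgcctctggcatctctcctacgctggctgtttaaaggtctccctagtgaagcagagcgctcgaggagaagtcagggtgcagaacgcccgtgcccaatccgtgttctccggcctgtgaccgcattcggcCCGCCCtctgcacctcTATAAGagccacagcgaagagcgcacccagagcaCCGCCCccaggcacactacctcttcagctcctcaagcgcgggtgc
Aldh1a1, chr19:20601718-20602017, plus strand: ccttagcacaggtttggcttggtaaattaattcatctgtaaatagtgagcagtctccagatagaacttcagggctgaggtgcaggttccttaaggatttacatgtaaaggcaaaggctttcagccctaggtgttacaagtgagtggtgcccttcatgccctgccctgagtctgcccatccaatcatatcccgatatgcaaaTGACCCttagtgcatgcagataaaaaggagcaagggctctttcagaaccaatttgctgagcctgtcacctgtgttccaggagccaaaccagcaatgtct
Rbp4 and Lrat each had a TATA box, beginning 28 and 29 bases before the start, and 2 GC boxes. Of the 9 members, 7 had a RefSeq window. A TATA box lay in 3 of these 7 against 12.3% of 32851 windows of all genes, and a GC box in 5 against 35.7%. The TATA letters of Dhrs9, the other member with them, began 122 bases before the start. Where a member had several windows, only the window closest to a main annotated start was used, while the shares count every window. The core motif lay in 2 of the 7, Dhrs9 and Aldh1a1, against 43.7% of all windows. No window of the 7 held 2 core motifs in 1 direction with 1, 2 or 5 bases between them, which 0.222%, 0.268% and 0.0974% of all windows had. These are matches of letters only.

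On GRCm38, by GENCODE M21, Crabp1 lies on chromosome 9 (54764748 to 54773110), as does Stra6 (58063788 to 58153996). Crabp2 lies on chromosome 3 (87948666 to 87953376), Dhrs3 on chromosome 4 (144892827 to 144928209) and Dhrs9 on chromosome 2 (69380445 to 69404533). Aldh1a1 lies on chromosome 19 (20492715 to 20643465) and Aldh1a3 on chromosome 7 (66390890 to 66427517). All 9 members are protein-coding, and none shares exon sequence with another annotated gene.

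Levels per length are given as FPKM (fragments per kilobase of transcript, scaled to the mapped fragments, as the authors computed them). By mean FPKM over the 4 libraries, Crabp2 was highest at 141. Rbp4, Dhrs3 and Aldh1a1 followed at 25.9, 23.5 and 20.7. Their ranges over the libraries overlapped, so these 3 had no fixed order. Dhrs9 (6.65) and Aldh1a3 (6.11) came next and also overlapped. Crabp1 (1.75), Lrat (0.84) and Stra6 (0.584) were the lowest, and neighbours among them overlapped.

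Comparing IMQ+VEH with IMQ asks what the lotion without the compound does on imiquimod-treated skin. IMQ is a single library, so an effect of the lotion cannot be told apart from other differences of that skin sample. Rbp4, the blood carrier of retinol, was 8.04-fold higher in IMQ+VEH than in IMQ, and Lrat, which stores retinol as ester, was 8.54-fold lower. The other 7 members did not pass the test. Among them the fitted ratio of IMQ+VEH to IMQ was 3.10 for Stra6, 2.01 for Aldh1a3 and 1.92 for Aldh1a1, the latter both retinoic acid synthases. No member differed over 2-fold within the IMQ+VEH pair. Over all tested genes 9.94% did, so 0 of 9 is near that share. In 8 of the 9 members all 3 lotion libraries, with or without IDMF, lay on one side of IMQ: 5 were above it and 3 below. Crabp1 was the exception. Over all tested genes the 3 lotion libraries lay on one side of IMQ for 59%, above it for 28.8% and below it for 30.2%.

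By edgeR's quasi-likelihood test, adjusted over all 15068 genes, 2 of the 9 members passed the threshold of 0.05, Rbp4 higher and Lrat lower. Over all genes 0.664% passed, 0.338% higher and 0.325% lower. Because the members were picked with these values in view, nothing is read from that count. The test takes its spread from the IMQ+VEH pair, and the single IMQ library was assumed to vary like it. The median log2 difference of the IMQ+VEH mean to IMQ was 0.47 over the members and -0.02 over all genes, and the median size without sign was 0.94 against 0.27.

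**Figure D1:**
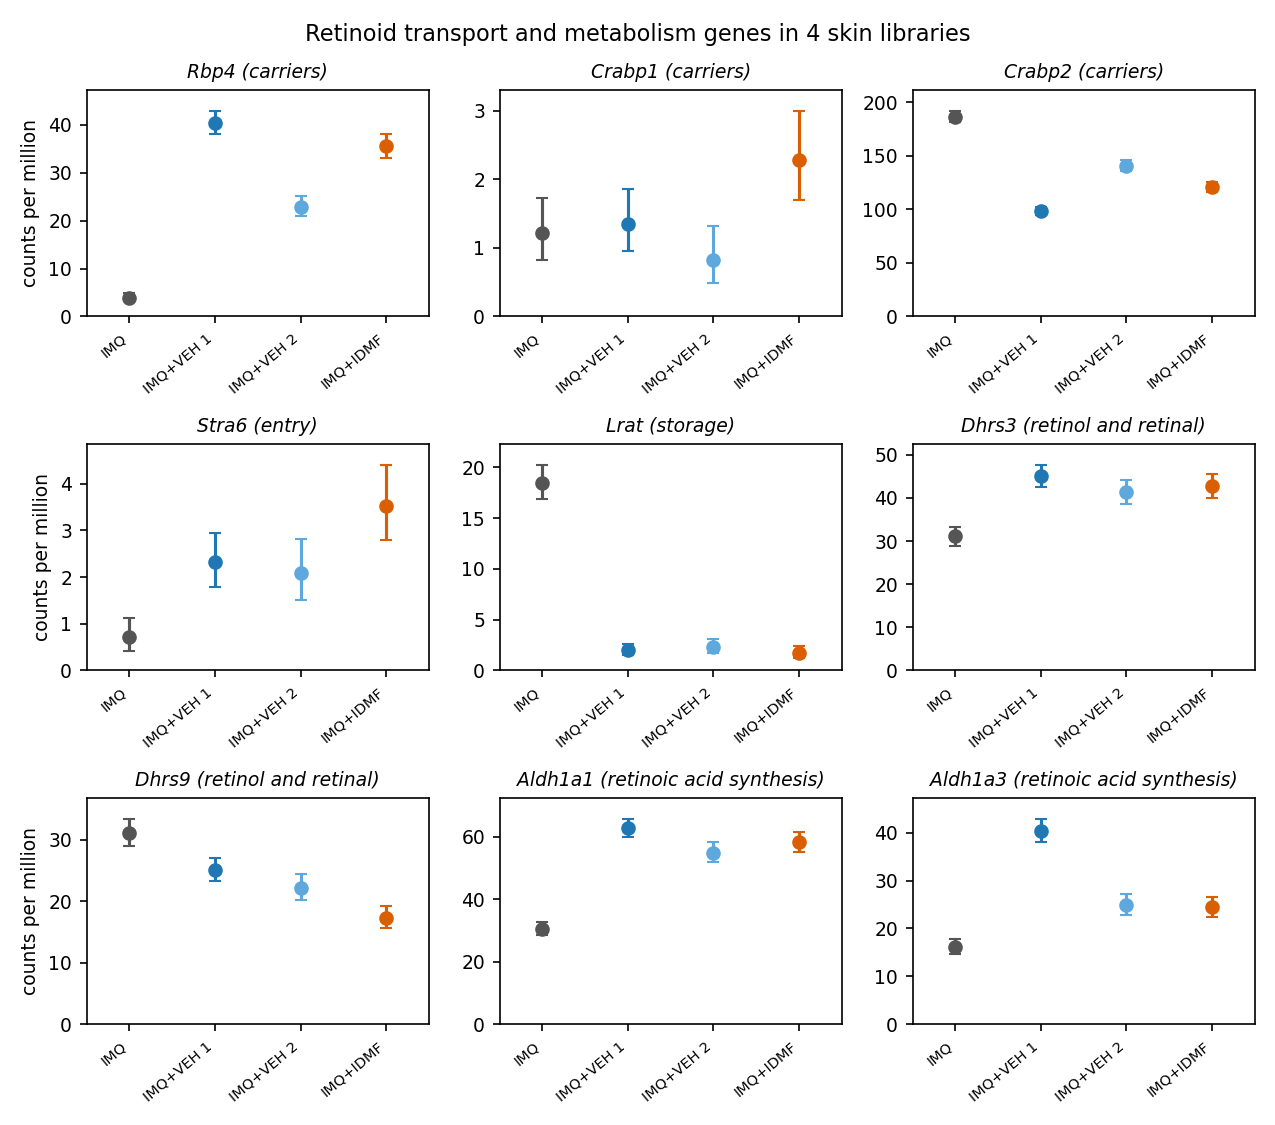
CPM of the 9 members (y axis, from 0) in each of the 4 libraries (x axis), with exact 95% Poisson intervals that cover counting error only. Rbp4 is lowest and Lrat highest in IMQ, and the other 3 libraries lie together on the other side.

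Among the carriers, Rbp4 had 100 counts in IMQ, 1134 and 470 in IMQ+VEH replicates 1 and 2, and 793 in IMQ+IDMF. That is 3.94, 40.4, 22.9 and 35.5 CPM (counts scaled to a common library size). IMQ was low and apart from the other 3, and IMQ+IDMF lay inside the IMQ+VEH pair. The fitted log2 fold change of IMQ+VEH against IMQ was 3.01 (SE 0.43, n = 2 and 1). It was 2.54 without IMQ+VEH replicate 1 and 3.36 without replicate 2. Rbp4 lies on chromosome 19 (38116629 to 38125281, GRCm38) on the minus strand.

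Rbp4 is made by adipocytes as well as by liver, and adipocyte markers moved with it. Summed over Adipoq, Plin1, Plin4, Cidec, Fabp4, Lep, Retn and Cfd, they had 804 CPM in IMQ, 3769 and 2567 in IMQ+VEH and 2778 in IMQ+IDMF. All 8 of 8 markers were above IMQ in the 3 lotion libraries, and 4 passed the test for IMQ+VEH against IMQ. Rbp4 differed more than the sum did. Relative to this sum, in CPM per 1000 marker CPM, it had 4.90 CPM in IMQ, 10.7 and 8.93 in IMQ+VEH and 12.8 in IMQ+IDMF. Fabp4 and Cfd weighed most in the sum, and the ratio depends on these weights. By log2 CPM difference to IMQ, Rbp4 had 3.33 and 2.51 in IMQ+VEH and 3.14 in IMQ+IDMF. Fabp4 had 1.61, 1.22 and 1.31, the least of the markers. Cidec had 2.91, 2.25 and 2.47, nearer to Rbp4 but below it. The part of adipocyte content in the Rbp4 difference was not tested beyond these values. In bulk skin, fewer cells of a type and less RNA per cell cannot be told apart.

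Crabp2, which brings retinoic acid to the nucleus, had 4726 counts in IMQ, 2754 and 2877 in IMQ+VEH and 2692 in IMQ+IDMF. At 186, 98.2, 140 and 120 CPM, IMQ was the highest library and the other 3 lay below it. The log2 fold change of IMQ+VEH against IMQ was -0.64 (SE 0.30). Markers of the upper epidermis moved in the same direction: 7 of the 8 listed were in the tables (Lor, Ivl, Flg2, Cdsn, Casp14, Tgm1 and Tgm3), 6 of the 7 were below IMQ in the 3 lotion libraries, and their sum was 10877, 6623, 9234 and 7999 CPM. None of the 7 passed the test for IMQ+VEH against IMQ. Per 1000 CPM of these markers Crabp2 lay between 14.8 and 17.1 CPM in the 4 libraries, with the highest value in IMQ. Markers of stressed epidermis, described with Lrat, were also highest in IMQ. Per 1000 CPM of those, Crabp2 had 7.04 CPM in IMQ, 8.12 and 15.6 in IMQ+VEH and 14.0 in IMQ+IDMF, with the lowest value in IMQ. The ratio thus depended on the list, and the part of either in the Crabp2 difference was not tested further.

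Crabp1, the cytosolic relative of Crabp2 that is linked to the breakdown of retinoic acid, had few counts: 31 in IMQ, 38 and 17 in IMQ+VEH and 51 in IMQ+IDMF. IMQ lay between the IMQ+VEH libraries. The exact 95% intervals, for counting error only, were 0.83 to 1.73 CPM in IMQ, 0.959 to 1.86 and 0.483 to 1.33 in IMQ+VEH, and 1.7 to 3.0 in IMQ+IDMF. The log2 fold change of IMQ+VEH against IMQ was -0.15 (SE 0.80). A difference was not detectable at this depth.

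Stra6 is the membrane receptor that takes retinol from RBP4. It had 18 counts in IMQ, 65 and 43 in IMQ+VEH and 79 in IMQ+IDMF, or 0.709, 2.32, 2.10 and 3.53 CPM. IMQ was lowest. The exact interval of IMQ, 0.42 to 1.12 CPM, did not reach the lowest bound of the other 3, which was 1.52. These intervals cover counting error only, not the spread between skin samples. The log2 fold change was 1.63 (SE 0.75) for IMQ+VEH against IMQ. Endothelial markers (Pecam1, Cdh5, Kdr, Tek, Emcn and Egfl7) were above IMQ in the 3 lotion libraries for 5 of 6, with sums of 89.3, 203, 101 and 136 CPM, and Stra6 per 1000 CPM of them was 7.94, 11.4, 20.8 and 26.0. No endothelial marker passed the test for IMQ+VEH against IMQ. The part of these markers in the Stra6 value was not tested beyond this ratio. Stra6 and Rbp4 thus were lowest in the same library, Stra6 on few counts. Dhrs3, Aldh1a1 and Aldh1a3 were lowest there too, and 28.8% of all tested genes were below all 3 lotion libraries in IMQ.

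Lrat counts were 469 in IMQ, 57 and 47 in the IMQ+VEH libraries, and 39 in IMQ+IDMF. That is 18.5 CPM against 2.03, 2.29 and 1.74. IMQ stood alone as the high library. The log2 fold change of IMQ+VEH against IMQ was -3.09 (SE 0.45), with -3.01 when IMQ+VEH replicate 1 was left out and -3.18 when replicate 2 was. Lrat lies on chromosome 3 (82892579 to 82903973), also on the minus strand.

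Hair follicle and stressed-epidermis markers were also highest in IMQ. The hair follicle sum (Krt71, Krt25, Krt27, Krt35, Krt85, Hoxc13, Msx2, Tchh, Dsg4 and Lef1) was 84.5 CPM in IMQ, 12.7 and 13.9 in IMQ+VEH and 31.8 in IMQ+IDMF, and 6 of 10 were below IMQ in the 3 lotion libraries. For IMQ+VEH against IMQ 4 of them, Krt71, Krt25, Krt35 and Tchh, passed the test as lower. Krt35, Krt85 and Dsg4 had 0 counts in at least 1 IMQ+VEH library. The stress sum (Krt6a, Krt6b, Krt16, Krt17, S100a8, S100a9 and Sprr1b) was 26459, 12088, 9024 and 8575 CPM, with 6 of 7 below IMQ. No stress marker passed the test for IMQ+VEH against IMQ. Keratinocyte markers in sum ranged from 42718 to 55996 CPM, and Krt1 and Krt10 weighed most, at 22248 and 18300 CPM in IMQ. Of the 8 markers, 1 was above IMQ and 3 below it in the 3 lotion libraries. Krt14 had 9905 CPM in IMQ, 4540 and 4677 in IMQ+VEH and 5334 in IMQ+IDMF. Per 1000 CPM of the stress markers, Lrat had 0.698 CPM in IMQ and 0.168, 0.254 and 0.203 in the others. Per 1000 CPM of the hair follicle markers it had 219 in IMQ, 161 and 165 in IMQ+VEH and 54.9 in IMQ+IDMF. Single hair follicle markers lay on both sides of Lrat. By log2 CPM difference to IMQ, Lrat had -3.14 and -2.96 in IMQ+VEH and -3.35 in IMQ+IDMF. Krt71 had -5.62, -6.27 and -3.85, and Hoxc13 had -0.78, -0.79 and 0.56. The part of either compartment in the Lrat difference was not tested beyond these values.

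The next members encode enzymes that act between retinol and retinal, the step before retinoic acid. Retinal itself was not measured. Dhrs3, which reduces retinal back to retinol, had 31.1 CPM in IMQ, 45.1 and 41.3 in IMQ+VEH and 42.7 in IMQ+IDMF. The 3 lotion libraries were close to each other and above IMQ, with a log2 fold change of 0.47 (SE 0.28) for IMQ+VEH. Dhrs9, described as a retinol dehydrogenase of epithelia, ran the other way with 31.1, 25.1, 22.2 and 17.4 CPM and a log2 fold change of -0.39 (SE 0.30). Levels per length of Dhrs3 over Dhrs9 had a ratio of 2.13 in IMQ, 3.79 and 3.93 in IMQ+VEH and 5.04 in IMQ+IDMF, so the IMQ ratio was the lowest and the IMQ+IDMF ratio the highest. The upper epidermis markers were highest in IMQ as well. Dhrs9 per 1000 CPM of them was 2.86 CPM in IMQ, 3.79 and 2.41 in IMQ+VEH and 2.17 in IMQ+IDMF, so that IMQ lay within the range of the lotion libraries. Their part in the Dhrs9 value and in its ratio to Dhrs3 was not tested further.

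Aldh1a1 and Aldh1a3 oxidise retinal to retinoic acid. Aldh1a1 had 778 counts in IMQ, 1758 and 1127 in IMQ+VEH and 1302 in IMQ+IDMF, or 30.7, 62.7, 55.0 and 58.2 CPM. The 3 lotion libraries lay close together, well above IMQ, and the log2 fold change of IMQ+VEH was 0.94 (SE 0.28). Aldh1a3 had 412, 1133, 510 and 547 counts, or 16.2, 40.4, 24.9 and 24.5 CPM. IMQ was again lowest, but IMQ+VEH replicate 1 stood well above the other lotion libraries, and the log2 fold change was 1.01 (SE 0.36). Aldh1a1 was the more abundant synthase per length in each library, by 2.70-fold to 4.16-fold. Sebaceous gland markers (Krt79, Mc5r, Elovl3, Scd3, Awat1, Dgat2l6, Soat1 and Far2) were above IMQ in the 3 lotion libraries for 8 of 8, with sums of 1272, 2148, 2960 and 2784 CPM. Fibroblast markers (Col1a1, Col1a2, Col3a1, Dcn, Lum, Pdgfra and Fbn1) were above for 5 of 7, with sums of 1706, 6367, 3322 and 2183 CPM. Per 1000 CPM of the sebaceous markers, Aldh1a1 had 24.1 CPM in IMQ, 29.2 and 18.6 in IMQ+VEH and 20.9 in IMQ+IDMF, and Aldh1a3 had 12.8, 18.8, 8.40 and 8.79. On that scale IMQ lay within the range of the lotion libraries for both synthases. Per 1000 CPM of the fibroblast markers Aldh1a1 had 18.0, 9.84, 16.5 and 26.7 CPM, again with IMQ inside the range. For IMQ+VEH against IMQ 1 of the sebaceous markers passed the test, as higher, and none of the fibroblast markers did. The part of these cell types was not tested further.

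**Figure D2:**
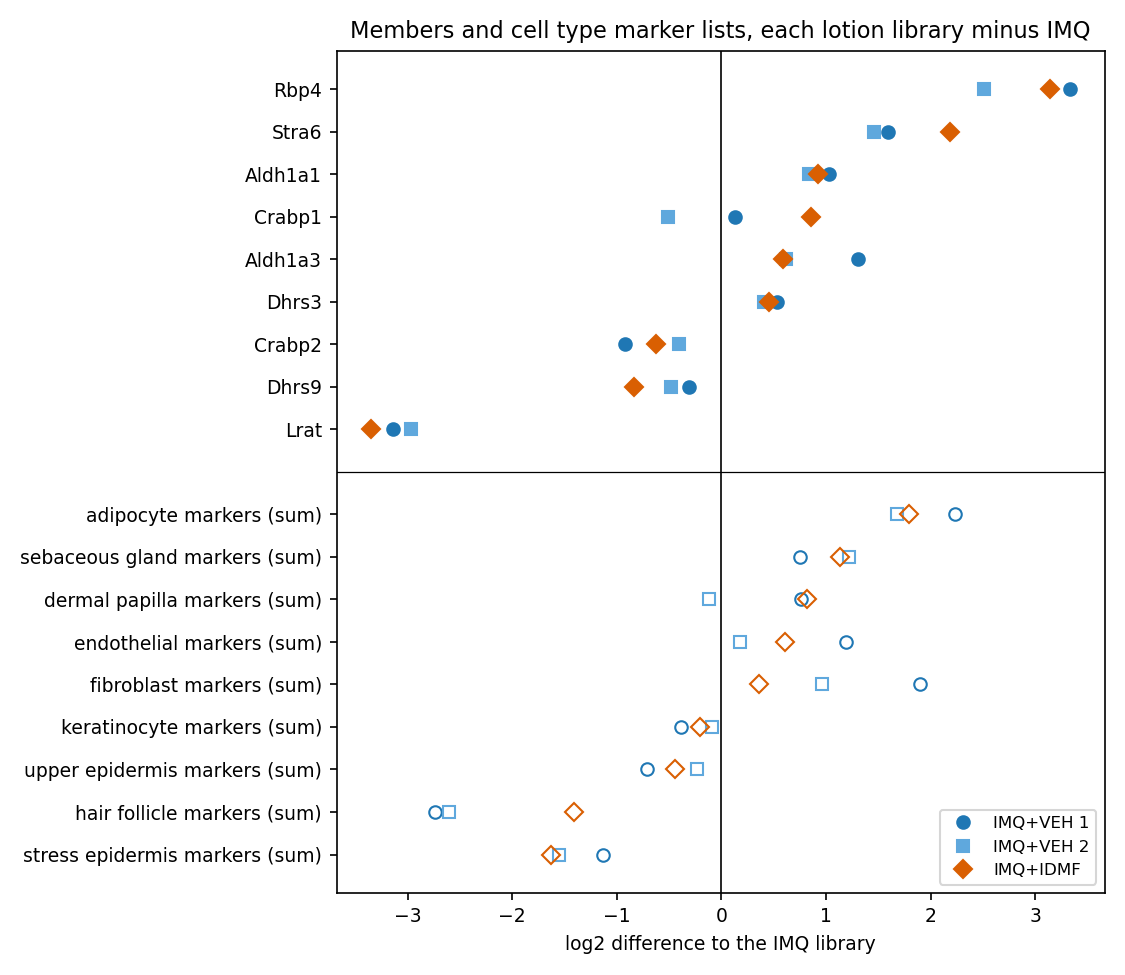
Log2 difference of each lotion library to IMQ (x axis) for the 9 members (filled, log2 CPM) and for summed marker lists of 9 cell types (open). Rbp4 lies to the right of the adipocyte sum in each lotion library, and Lrat lies to the left of the hair follicle and stress sums in each. Single hair follicle markers, not drawn here, lay on both sides of Lrat.

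IMQ+IDMF against IMQ+VEH asks what the compound adds to the lotion. None of the 9 members passed the test, and the share of all genes that passed was 0%. At an unadjusted p under 0.05 edgeR had 0 of the 9 members and 306 of all 15068 genes (2.03%), and at an adjusted p under 0.05 DESeq2, like edgeR, called 0 genes. IMQ+IDMF lay between the IMQ+VEH libraries for 4 members (Rbp4, Crabp2, Dhrs3 and Aldh1a1), above both for 2 (Crabp1 and Stra6) and below both for 3 (Lrat, Dhrs9 and Aldh1a3). Over all tested genes these shares were 44.8%, 27.7% and 27.6%.

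The largest fitted value was that of Crabp1, at 1.05 (SE 0.77) on the log2 scale. It rested on 51 counts against 38 and 17, which differed by 0.72 and 1.37 in log2 CPM. For Stra6 it was 0.68 (SE 0.65), and IMQ+IDMF was 0.59 above replicate 1 and 0.73 above replicate 2. Dhrs9 had -0.45 (SE 0.31), Aldh1a3 -0.42 (SE 0.35) and Lrat -0.31 (SE 0.51). Aldh1a3 was only 0.02 below replicate 2.

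Rbp4 (0.16, SE 0.35), Crabp2 (0.01, SE 0.30), Dhrs3 (-0.02, SE 0.27) and Aldh1a1 (-0.02, SE 0.27) lay near 0. The IMQ+VEH libraries themselves differed by -0.82 for Rbp4 and 0.52 for Crabp2. A single IDMF library and a pair of controls do not show that the members were alike. IMQ+IDMF against IMQ is 1 library against 1 with no test. By log2 CPM, Rbp4 (3.14) and Stra6 (2.18) were more than 2-fold above IMQ and Lrat (-3.35) more than 2-fold below, where 6.72% of all genes were above and 4.53% below by that size. These values share the IMQ library with the IMQ+VEH comparison.

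**Figure D3:**
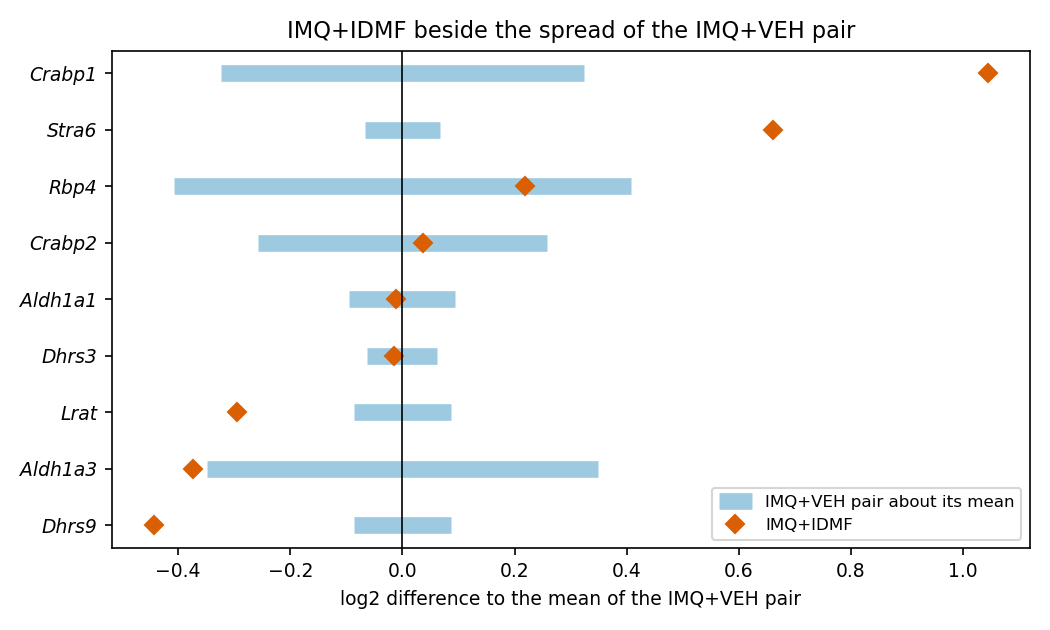
Log2 CPM of IMQ+IDMF (diamonds) minus the mean of the IMQ+VEH pair (x axis) for each member, with bars that span the pair about its mean. Crabp1, Stra6, Lrat, Aldh1a3 and Dhrs9 lie outside the bar and the other 4 inside it.

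Other genes of the retinoid pathway were taken from a list of 44, of which 37 had enough counts to be tested. For IMQ+VEH against IMQ 0 of the 37 passed higher and 1 lower, against 0.338% and 0.325% of all genes. For IMQ+IDMF against IMQ+VEH 0 passed. At an unadjusted p under 0.05 in edgeR, IMQ+VEH differed from IMQ for 12 of the 37 and for 8.81% of all genes. This list too was chosen with earlier results of these data known, so nothing is read from these counts. Over the 37 the median log2 difference of the IMQ+VEH mean to IMQ was 0.01, beside -0.02 for all genes. The gene that fell was Has3, a hyaluronan synthase of keratinocytes that responds to retinoic acid. It had 990 counts in IMQ, 366 and 276 in IMQ+VEH and 383 in IMQ+IDMF, so IMQ was high and the others lay below it. Its log2 fold change was -1.56 (SE 0.30, edgeR adjusted p = 0.0385). With the 3 lotion libraries as 1 group against IMQ it was -1.42, with an adjusted p of 0.0689. Over the 5 alternatives its adjusted p ran from 0.000274 to 0.0689. Has3 lies on chromosome 8 (106870242 to 106884566), and shares exon sequence with Chtf8 on the other strand. Whether the counting used strand is not stated.

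Carriers outside the members had fitted values of both signs. Rbp2, which binds retinol in the cell, had a log2 fold change of -0.56 (SE 0.30). Fabp5, which can carry retinoic acid to PPAR delta, had -1.02 (SE 0.64). In FPKM the ratio of Fabp5 to Crabp2 was 31.5 in IMQ, 25.9 and 23.2 in IMQ+VEH and 22.0 in IMQ+IDMF. Rbp7, a retinol-binding protein of fat and endothelium, had 52, 106, 75 and 114 counts and a log2 fold change of 0.86 (SE 0.59). None of these 3 passed the test. Bco1 and Bco2, which cleave carotenoids, had few counts, with -0.27 (SE 0.81) and -0.69 (SE 0.69).

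The enzymes that interconvert retinol and retinal (12 listed, 11 tested) gave 0 calls, and both IMQ+VEH libraries were above IMQ for 5 and below for 1. Rdh10, a main retinol dehydrogenase of tissues, had 0.32 (SE 0.33), and Rdh11 had 0.87 (SE 0.30). Adh7, an alcohol dehydrogenase of epithelia that can oxidise retinol, had 1093 counts in IMQ, 1230 and 1498 in IMQ+VEH and 2243 in IMQ+IDMF. At 43.1, 43.8, 73.1 and 100 CPM, IMQ+IDMF was highest. The log2 fold change of IMQ+IDMF against IMQ+VEH was 0.78 (SE 0.31, edgeR adjusted p = 1). It became 0.46 without replicate 1 and 1.19 without replicate 2. Exons of Adh7 overlap those of 0610031O16Rik on the other strand.

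Genes that store or release retinol as ester had fitted values of the opposite sign to Lrat. All 4 listed, Dgat1, Awat2, Lipe and Lpl, were above IMQ in both IMQ+VEH libraries, which 33.5% of all genes were, and 0 of the 4 passed the test. Without the filter on low counts Awat2, Dgat1 and Lipe, 3 of the 4, passed, in a fit where 424 of 17527 genes did, against 100 of 15068 with the filter. Awat2, an acyltransferase of sebaceous glands that can also esterify retinol, had 286 counts in IMQ, 651 and 740 in IMQ+VEH and 599 in IMQ+IDMF, with a log2 fold change of 1.39 (SE 0.36, edgeR adjusted p = 0.153). Dgat1 had 1.03 (SE 0.29), Lipe, the hormone-sensitive lipase, 1.18 (SE 0.31), and Lpl 1.15 (SE 0.41). The adipocyte and sebaceous gland sums given above were lowest in IMQ too.

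Breakdown of retinoic acid is the task of the CYP26 enzymes. Cyp26b1 was the one with counts: 429 in IMQ, 853 and 588 in IMQ+VEH and 592 in IMQ+IDMF, a log2 fold change of 0.81 (SE 0.31, edgeR adjusted p = 0.432). Cyp26a1 had 1 count in IMQ+VEH replicate 1 and 0 in the other 3 libraries, and Cyp26c1 had 8 in that replicate and 0 in the others. In the 3 libraries at 0, a count of 0 allows up to 3 counts, which is 0.118 CPM in IMQ, 0.146 in IMQ+VEH replicate 2 and 0.134 in IMQ+IDMF, for counting error only. Cyp2s1, an epithelial P450 described to act on retinoic acid, had 717, 439, 229 and 302 counts and a log2 fold change of -1.07 (SE 0.34, edgeR adjusted p = 0.276). Its exons overlap those of Gm26707 on the other strand.

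Of 7 nuclear receptors 0 passed in either comparison. Rarg and Rxra, the main pair of the epidermis, were the most abundant RAR and RXR genes in FPKM, with means of 49.1 and 39.98, and had log2 fold changes of -0.05 (SE 0.30) and -0.23 (SE 0.32) for IMQ+VEH against IMQ. Rara had 0.17 (SE 0.32) and Rarb 0.36 (SE 0.68). Rxrg, a receptor of muscle and other tissues, had the widest range: 158 counts in IMQ, 359 and 189 in IMQ+VEH and 221 in IMQ+IDMF, with 0.82 (SE 0.43). Skeletal muscle markers were above IMQ in the 3 lotion libraries for 5 of 6, with sums of 11351, 21308, 15091 and 20118 CPM, and their part in Rxrg was not tested. No muscle marker passed the test for IMQ+VEH against IMQ.

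The 7 genes listed as retinoic acid targets had values of both signs. Both IMQ+VEH libraries were above IMQ for 3 of the 7 and below it for 2, beside 33.5% and 35.1% of all genes. Rarres2, which encodes chemerin, had 423 counts in IMQ, 1471 and 706 in IMQ+VEH and 555 in IMQ+IDMF. Its log2 fold change was 1.38 (SE 0.34, edgeR adjusted p = 0.131) for IMQ+VEH against IMQ and -0.81 (SE 0.33, edgeR adjusted p = 1) for IMQ+IDMF against IMQ+VEH. Its exons overlap those of Lrrc61 on the other strand. Rarres1 had 0.97 (SE 0.37) and Tgm2, a transglutaminase, 1.15 (SE 0.29), while Hbegf, an EGF receptor ligand, had -1.06 (SE 0.29). Neither these 3 nor Rarres2 passed the test.

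**Figure D4:**
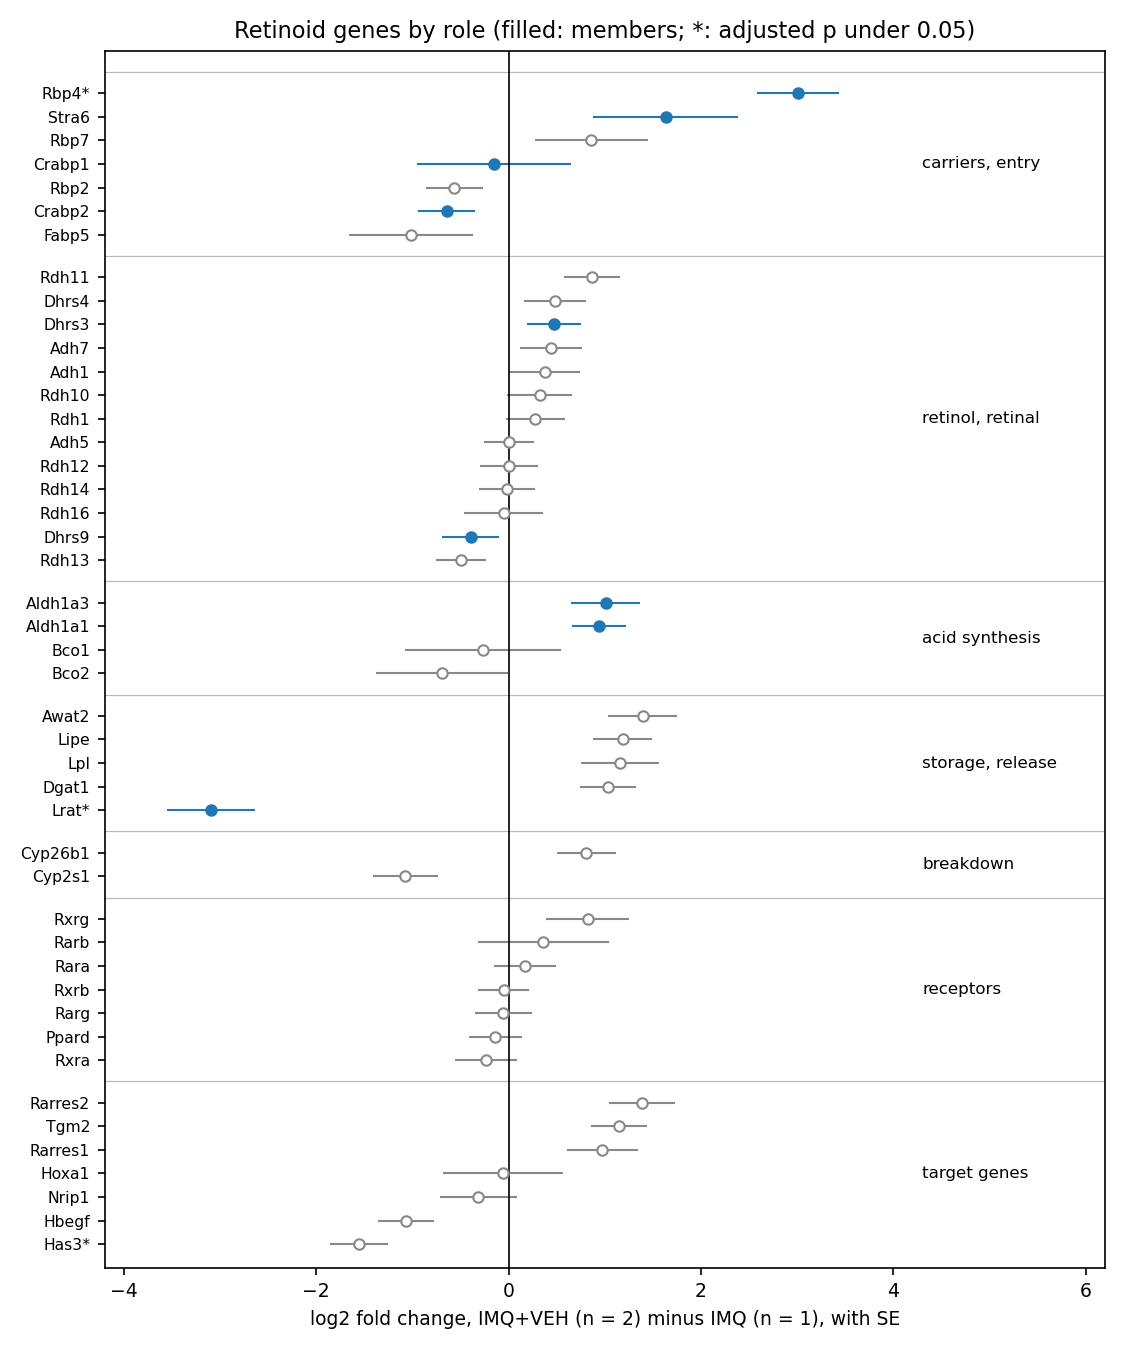
Fitted log2 fold change of IMQ+VEH (n = 2) against IMQ (n = 1) on the x axis, with SE bars, for the 9 members (filled) and other tested retinoid genes (open), grouped by role. Rbp4 (3.01) and Lrat (-3.09) lie farthest from 0, and Has3 (-1.56) is the other gene marked as past the threshold.

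The genes with the most similar pattern over the 4 libraries were looked up for the 3 members with the widest range among those with a mean log2 CPM of at least 1, as the smallest root mean square difference between centred log2 CPM profiles among 12422 genes. With 4 libraries this describes the pattern and has no test. For Lrat they were Pla2g4d, an epidermal phospholipase (0.07), Sprr2i, a cornified envelope gene of a family whose near-identical copies may share reads (0.11), and Prr9 (0.24). Pla2g4d had 1291 counts in IMQ against 149, 128 and 117. For Rbp4 they were Slc7a10, an amino acid transporter of fat cells (0.14), Cyp2e1 (0.20) and Cldn15 (0.22). Slc7a10 had 71 counts in IMQ, 680 and 311 in IMQ+VEH and 438 in IMQ+IDMF. For Aldh1a3 they included Gpr146 (0.01) and Plod1 (0.03), both highest in IMQ+VEH replicate 1.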

How the data were processed

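The authors deposited 1 table per library with raw counts per gene symbol and FPKM values, per the file headers. TopHat2, HTSeq and Cufflinks, with mm10 and GRCm38 as builds, are listed per the submitters' processing notes. Their versions, the annotation and the strand setting were not given in the sources. Tests used the counts in edgeR 4.0.16 under R 4.3.3, with TMM scaling, the two-sided quasi-likelihood F test, filterByExpr by group (minimum count 10, minimum total 15), 1 mean per group, Benjamini-Hochberg over 15068 genes. The fit had 1 residual and 11.2 prior degrees of freedom. SE is the fold change over the square root of F. Log2 CPM used a prior count of 2. FPKM served for levels between genes. The script was checked on simulated counts. Alternatives were DESeq2 1.42.0, its size factors in edgeR, other count filters, other groupings, leaving out an IMQ+VEH replicate, a prior count of 0.5 and log2(FPKM + 0.1). Results of 2 genes that this rule or the lists cover are not reported here. The text names the members, pathway genes that passed, per role the gene with the widest range, and the 3 genes most like each of 3 members. Further pathway and marker genes were named after their values were seen. The members and lists were chosen with earlier results of these data known, and the pairing of members with marker lists was made after seeing the values. Positions come from GENCODE M21 (GRCm38), which held all 16 genes looked up.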

Additional observations from a re-analysis of the deposited data

How the results depend on the processing

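Rbp4 and Lrat were the 2 members called for IMQ+VEH against IMQ under each of the 5 alternatives that give a test, and 0 members were called for IMQ+IDMF against IMQ+VEH. The alternatives use the same libraries, and the list was drawn up with their counts known, so nothing is read from these calls. For IMQ+VEH against IMQ, DESeq2 called 202 of 13150 genes (140 higher, 62 lower) and 2 of 36 on the pathway list (Has3 and Tgm2). By comparison edgeR called 100 of 15068 (51 higher, 49 lower) and 1 of 37. Without a filter on low counts edgeR called 424 of 17527 genes, and 7 of 43 on the pathway list (Awat2, Dgat1, Has3, Hbegf, Lipe, Rarres2 and Tgm2). For IMQ+IDMF against IMQ+VEH that fit called 16 of 17527 genes, none of them a member or on the pathway list. With the 3 lotion libraries as 1 group against IMQ, 55 of 15068 genes and 0 of 37 on the pathway list were called. With IMQ and IMQ+VEH as 1 group, fold changes of IMQ+IDMF turned to 0.19 for Awat2, -0.44 for Cyp2s1, -0.35 for Has3 and 0.069 for Rxrg. Among the members the sign turned for Aldh1a1 (-0.02 to 0.24), Dhrs3 (-0.02 to 0.13) and Crabp2 (0.01 to -0.23), Lrat moved from -0.31 to -2.12 and Stra6 from 0.68 to 1.05, and none was called. That reference holds the IMQ library too, so this is another comparison than IMQ+IDMF against IMQ+VEH. Lrat had 469 counts in IMQ, 57 and 47 in IMQ+VEH and 39 in IMQ+IDMF. This grouping is still counted in the signs that follow. Over all alternatives that could be run, 15 of 16 fold changes of named genes kept their sign for IMQ+VEH against IMQ (all but Crabp1), and 8 of 16 for IMQ+IDMF against IMQ+VEH. Crabp1 has no value at a mean count of at least 50. Without an IMQ+VEH replicate no residual degrees of freedom remain, so those are values with no test. No paired analysis was possible because the other groups hold 1 library each, against 2 in IMQ+VEH. Few counts limit Crabp1, Stra6 and, outside IMQ, Lrat.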
